A study of Mus musculus with 4 samples.

Results

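The 10 genes described here encode the core of the CRL4 ubiquitin ligase and a set of proteins that bind it. They are Cul4a, Cul4b, Ddb1, Ddb2, Rbx1, Crbn, Vprbp, Dda1, Dtl and Det1, chosen by name and found in a table of 23235 gene symbols. Polyadenylated RNA of mouse oocytes was measured by Smart-seq2, which copies whole transcripts from small inputs into cDNA, in 4 groups of 1 library each, with 10 oocytes per library. All mice had a C57B6 background and carried floxed alleles (Dcaf13fl/fl), in the control groups too. Growing deletion oocytes (Dcaf13fl/fl;Gdf9-Cre) and growing control oocytes (Dcaf13fl/fl) were taken at an age of about 14 days. Fully grown deletion oocytes and fully grown control oocytes, with the same genotypes, were taken at about 23 days, and their donors had received 5 IU of PMSG, a gonadotropin that stimulates follicles, 48 h earlier. Gdf9-Cre acts in oocytes, not in the other cells of the ovary. With 1 library per group no difference below has a replicate check, and no test was run. Stage, age and PMSG cannot be told apart, and neither can deletion of Dcaf13 and presence of Gdf9-Cre.

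CRL4 is a modular enzyme that attaches ubiquitin to proteins. A cullin scaffold, CUL4A or CUL4B, holds the RING protein RBX1, which recruits the ubiquitin-conjugating enzyme, at its other end from the adaptor DDB1, and DDB1 carries exchangeable substrate receptors called DCAFs, of which the deleted gene's product DCAF13 is one. Attachment of the small protein NEDD8 to the cullin switches the ligase on, and the COP9 signalosome removes it. In mouse oocytes, DDB1 and the receptor VPRBP are known to be needed for oocyte survival and for the start of development after fertilization.

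FPKM, the deposited unit, counts mapped fragments relative to transcript length and library total, so levels of different genes can be set side by side. Symbols and value rows of the deposited table run in different sort orders, and values were read after the symbols had been put into byte order. That order was inferred from the values and was not checked with the submitters. It moved the rows of 5 of the 10 genes (Cul4a, Cul4b, Rbx1, Crbn and Vprbp) and left Ddb1, Ddb2, Dda1, Dtl, Det1 and Dcaf13 in place. As deposited, the row of Vprbp was listed at 0 in all 4 libraries and that of Rbx1 lay between 0.261 and 0.829 FPKM. A check that uses no marker gene took the rows within 250 of each member whose values stayed under 1 FPKM. There the smallest value above 0 should be lower for longer transcripts. Around Cul4a and Cul4b the Spearman correlation across 158 such rows was -0.30 after re-pairing and -0.06 as deposited. It was -0.36 and -0.08 around Crbn (151 rows), -0.41 and -0.19 around Rbx1 (117 rows) and -0.30 and -0.20 around Vprbp (136 rows). Among shifts of up to 5 rows either way, the strongest correlation stood at no further shift around Cul4a, Cul4b, Crbn and Rbx1, and at a shift of 1 row around Vprbp. Of the 5 members whose row stays, Ddb1, Ddb2, Dda1 and Dtl had it at no shift, and Det1 at -5 rows, with a correlation of -0.21 under either order. The check therefore fixes the places of Vprbp and Det1 less well. Rows are not independent replicates, and these correlations are a description.

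Summed FPKM lay between 649397 and 678437 per library, and the relative depth read from low values was at most 1.11 times that of the growing control library. The number of fragments behind a value is not given. Dcaf13 stood at 38.9 FPKM in growing deletion against 96.1 in growing control oocytes, and at 64.0 in fully grown deletion against 160.2 in fully grown control oocytes. These are 0.405 and 0.400 times control, so Dcaf13 RNA was lower but not absent. The 12 oocyte markers were all at 1 FPKM or more in each library, with medians between 1353 and 1548 FPKM. The 12 granulosa and cumulus cell markers summed to 18.0 FPKM in growing deletion, 36.1 in growing control, 31.2 in fully grown deletion and 28.8 in fully grown control oocytes, with 4, 6, 5 and 4 of them at 1 FPKM or more, and Cyp19a1 the highest in each library. The markers at 0 were Inhba in growing deletion, none in growing control, Amh in fully grown deletion, and Foxl2, Amh and Wt1 in fully grown control oocytes. Cyp19a1 (7.75 against 17.7 FPKM, -1.10 in log2(FPKM + 1)) and Inha (2.16 against 6.53 FPKM, -1.25) were past the rule of size given below in growing deletion against control. In fully grown against growing oocytes so were Cyp19a1 in the deletion (1.03) and Inha in controls (-1.15), and of the oocyte markers Figla in the deletion (-1.17). None of the 8 theca and stroma markers reached 1 FPKM, and of the 6 endothelial and blood markers only Pecam1 did. Pecam1 stood at 12.9 FPKM in growing deletion, 11.6 in growing control, 18.7 in fully grown deletion and 12.3 in fully grown control oocytes. Cdh5, Hba-a1 and Hbb-b1 were at 0 in each library. The part of these markers in the differences below was not tested.

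All 10 genes were detected in every library, at levels that spread from the lowest at 4.95 to the highest at 269.9 FPKM. Rbx1 stood first in every library and alone made up 42.1% of the summed FPKM of the 10 genes in growing deletion, 45.7% in growing control, 47.6% in fully grown deletion and 50.5% in fully grown control oocytes. Ddb1, Cul4b and Dda1 took places 2 to 4 in each library, in an order that differed between libraries, followed by Ddb2. Crbn, Det1 and Dtl came next, in varying order. Vprbp was the last but one and Cul4a the last in all 4 libraries. At the low end, Cul4a was above 69.5% of the table's rows in fully grown control oocytes, and at the high end Rbx1 was above 97.98%. With 1 library per group the spread of neighbours in this order is unknown.

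**Figure D1:**
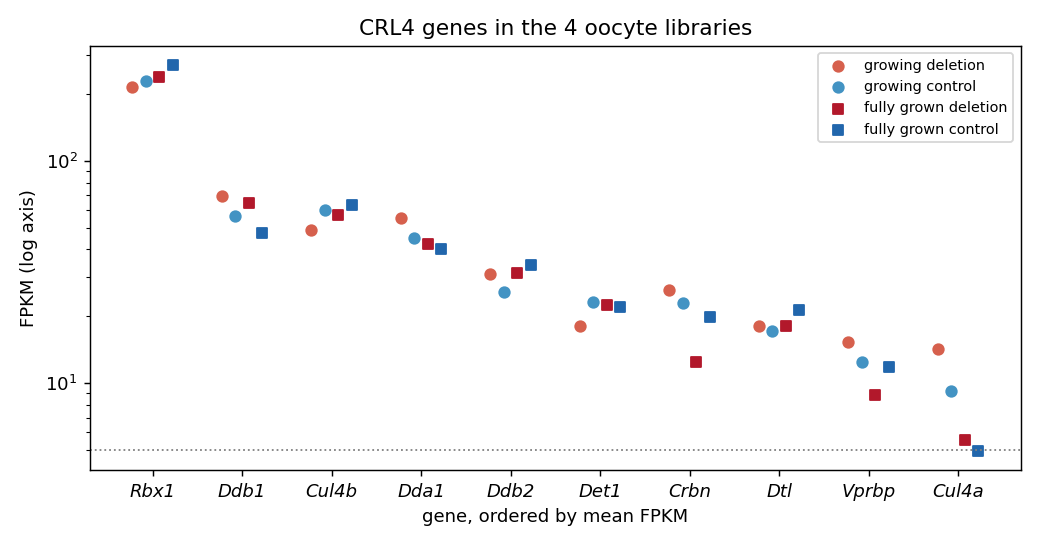
Level of each CRL4 gene in FPKM (log axis) in the 4 libraries, 1 point per library, with genes ordered from the highest to the lowest mean. The dotted line marks 5 FPKM; Rbx1 lies between 215.7 and 269.9 FPKM and Cul4a, the lowest gene, between 4.95 and 14.2.

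The scaffold genes were unequal. Cul4b, the X-linked paralog (chromosome X, minus strand, 35884798 to 35929373, mm9), stood at 49.1 FPKM in growing deletion, 60.2 in growing control, 57.4 in fully grown deletion and 63.3 in fully grown control oocytes. Cul4a (chromosome 8, plus strand, 13105721 to 13147939, mm9) was much lower, at 14.2, 9.25, 5.53 and 4.95 FPKM in the same libraries. Cul4b was thus the main cullin-4 transcript throughout, and Cul4a was high in the growing libraries and low in the fully grown ones, with the growing deletion library at the top. Cul4a made up 22.4% of the summed Cul4a and Cul4b FPKM in growing deletion against 13.3% in growing control oocytes, and 8.79% in fully grown deletion against 7.25% in fully grown control oocytes. The sum itself differed less, at 63.3 against 69.4 FPKM in growing and 62.9 against 68.3 FPKM in fully grown oocytes, deletion against control. A share within a library does not depend on how libraries are scaled. It does depend on the pairing of symbols and on trends with transcript GC content, which was 49.1% for Cul4a and 41.0% for Cul4b. In growing oocytes, deletion minus control in log2(FPKM + 1) was 0.57 for Cul4a and -0.29 for Cul4b. With a trend on GC content and length taken out it was 0.62 and -0.09. In fully grown oocytes the values were 0.13 and -0.14, and 0.13 and 0.02 without the trend. How reads that match both paralogs were assigned is not given in the sources used here.

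**Figure D2:**
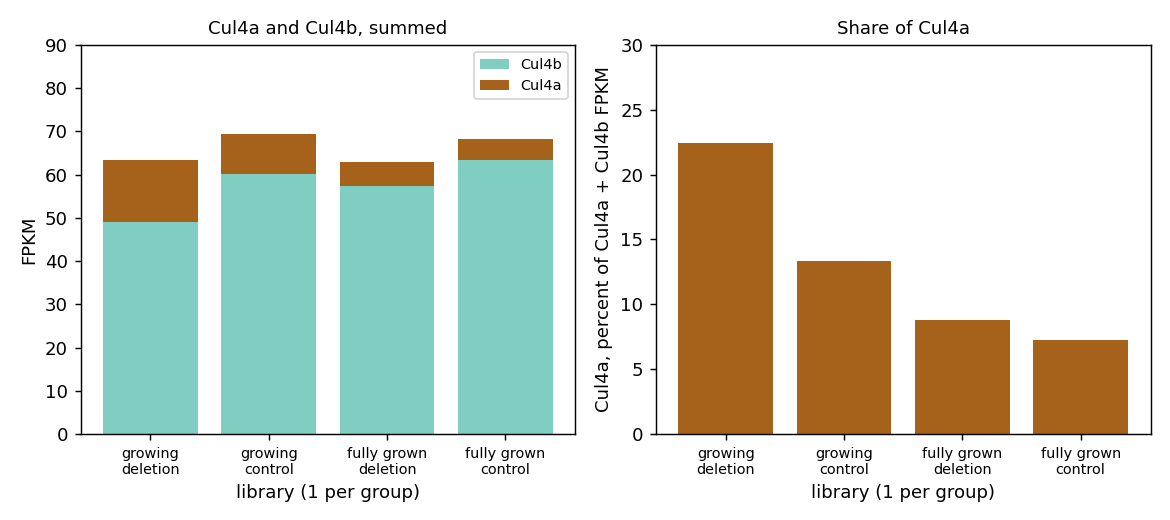
Left, FPKM of Cul4b and Cul4a stacked; right, Cul4a as a percent of their sum; bars are single libraries. The share of Cul4a is 22.4% in growing deletion, 13.3% in growing control, 8.79% in fully grown deletion and 7.25% in fully grown control oocytes.

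The promoters of Cul4a and Cul4b are shown because these paralogs encode alternative scaffolds and differed in level and pattern, and that of Crbn because it and Cul4a were the members past the rule of size given below. Each is the RefSeq window of 300 bases (build GRCm38.p6), 250 before the start and 50 after it, on the strand of the gene, 5′ to 3′; 9 of the 10 genes had such a window. The windows are chr8:13105373-13105672 (plus strand) for Cul4a, chrX:38576147-38576446 (minus strand) for Cul4b and chr6:106800038-106800337 (minus strand) for Crbn. Capitals mark matches, on either strand, to the GC box GGGCGG, the CCAAT box CCAAT or TAATTG, an element bound by the oocyte factor NOBOX; no matches overlap here.
Cul4a: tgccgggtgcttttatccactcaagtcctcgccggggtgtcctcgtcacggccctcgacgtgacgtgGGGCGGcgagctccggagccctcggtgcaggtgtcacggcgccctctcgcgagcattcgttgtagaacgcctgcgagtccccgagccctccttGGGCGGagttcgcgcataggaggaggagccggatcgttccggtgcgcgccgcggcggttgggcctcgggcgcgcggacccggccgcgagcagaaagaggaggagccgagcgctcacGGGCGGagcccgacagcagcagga
Cul4b: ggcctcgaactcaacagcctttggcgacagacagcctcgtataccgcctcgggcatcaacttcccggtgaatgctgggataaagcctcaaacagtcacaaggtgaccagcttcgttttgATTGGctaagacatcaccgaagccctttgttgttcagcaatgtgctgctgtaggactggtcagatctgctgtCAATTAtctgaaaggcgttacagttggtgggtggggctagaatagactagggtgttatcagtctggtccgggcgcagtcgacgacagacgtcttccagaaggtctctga
Crbn: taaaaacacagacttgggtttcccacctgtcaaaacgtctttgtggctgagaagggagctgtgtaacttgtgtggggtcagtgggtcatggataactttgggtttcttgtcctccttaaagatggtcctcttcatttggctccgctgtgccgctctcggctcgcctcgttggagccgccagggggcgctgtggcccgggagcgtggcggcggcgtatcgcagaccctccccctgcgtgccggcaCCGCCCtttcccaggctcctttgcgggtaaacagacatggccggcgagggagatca

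The Cul4a window held 3 GC boxes and 43 CpG dinucleotides at 71% GC. The Cul4b window held 14 CpG at 52.3% GC, with 1 CCAAT box and 1 TAATTG and no GC box. The Crbn window held 1 GC box and 20 CpG at 60% GC. Over 32851 windows of the same length, 35.7% held GGGCGG, 37.4% CCAAT and 8.0% TAATTG, and the medians were 7 CpG and 52.7% GC. A match is a description of letters only.

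Rbx1, which encodes the RING subunit (chromosome 15, plus strand, 81296746 to 81306799, mm9), had values of 215.7 FPKM in growing deletion, 229.7 in growing control, 239.7 in fully grown deletion and 269.9 in fully grown control oocytes. It was 3.31 to 3.95 times as high as Cul4a and Cul4b together. RBX1 also serves the cullins CUL1, CUL2 and CUL3, so this ratio is not that of CRL4 alone.

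The adaptor gene Ddb1 (chromosome 19, plus strand, 10680115 to 10704311, mm9) had values of 69.8 FPKM in growing deletion, 56.6 in growing control, 65.0 in fully grown deletion and 47.5 in fully grown control oocytes. Both deletion libraries were above both control libraries. Ddb1 exceeded the summed Cul4a and Cul4b FPKM in the deletion libraries, at 1.10 times in growing and 1.03 times in fully grown oocytes, and lay below it in the controls, at 0.815 and 0.696 times. This ratio, too, depends on the pairing of symbols and on trends with transcript GC content, 52.2% for Ddb1 and 41.0% for Cul4b. With the GC and length trend taken out, deletion minus control in growing oocytes was 0.26 for Ddb1 and -0.09 for Cul4b. In fully grown oocytes it was 0.33 and 0.02. Whether the ratio passes 1 without that trend was not tested. Dda1, which encodes a small protein that sits on DDB1 (chromosome 8, plus strand, 73993093 to 74000334, mm9), had values of 55.1, 45.0, 42.4 and 40.3 FPKM in growing deletion, growing control, fully grown deletion and fully grown control oocytes. It was highest in growing deletion oocytes, with the other libraries close together. The Dda1 transcript had 56.0% GC, and its deletion minus control in growing oocytes was 0.29, and 0.13 with the trend taken out.

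The substrate receptor genes lay lower. Ddb2, which encodes a receptor for damaged DNA (chromosome 2, minus strand, 91051739 to 91077223, mm9), stood at 30.8 FPKM in growing deletion, 25.8 in growing control, 31.4 in fully grown deletion and 33.9 in fully grown control oocytes. Crbn encodes cereblon, the receptor through which thalidomide acts in human cells (chromosome 6, minus strand, 106728239 to 106750068, mm9), and stood at 26.3, 22.9, 12.4 and 19.8 FPKM in the same libraries. The fully grown deletion library was the lowest for Crbn and the other 3 lay between 19.8 and 26.3 FPKM. Vprbp, also called Dcaf1, encodes a receptor known in mouse oocytes (chromosome 9, plus strand, 106724307 to 106783323, mm9). It stood at 15.3, 12.5, 8.88 and 11.8 FPKM, again lowest in fully grown deletion oocytes. Dtl, the gene of the receptor CDT2 that removes the replication licensing factor CDT1 (chromosome 1, minus strand, 193361244 to 193399413, mm9), stood at 18.1, 17.1, 18.1 and 21.3 FPKM. Det1, which encodes a subunit that joins the COP1 ubiquitin ligase to DDB1 (chromosome 7, minus strand, 85972360 to 85992097, mm9), stood at 18.1, 23.3, 22.5 and 22.0 FPKM. Dtl and Det1 were the flattest of the receptor genes, with the highest library 1.25 and 1.29 times the lowest.

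Across the 4 libraries the ratio of the highest to the lowest value ran from 1.25 (Dtl) to 2.87 (Cul4a). With 1 FPKM added to each value, its median was 1.33 over the 10 genes and 1.48 over the 8235 genes that reached 5 FPKM in some library. Growing deletion was the highest library for 5 members (Cul4a, Ddb1, Crbn, Vprbp and Dda1) and for 40.6% of those genes. Fully grown control was the highest for 4 members (Cul4b, Ddb2, Rbx1 and Dtl) and 20.7% of those genes, growing control for Det1 and 16.1%, and fully grown deletion for 0 members and 22.6%.

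Growing deletion oocytes were first set against growing control oocytes, which asks how these genes differ with Dcaf13 deletion and Gdf9-Cre together during growth. Differences are in log2(FPKM + 1), and a gene was called where it reached 5 FPKM in either library of a pair and differed by at least 1. Such a call compares 2 libraries, not 2 conditions. None of the 10 genes was called in either direction, where 5.13% of 8010 genes were. Cul4a had the largest difference, 0.57, and Ddb1 (0.30), Dda1 (0.29), Vprbp (0.27), Ddb2 (0.25), Crbn (0.19) and Dtl (0.07) were also above control. Det1 (-0.35), Cul4b (-0.29) and Rbx1 (-0.09) were below, although Rbx1 was at 0.08 and Cul4b at -0.09 once the trend on transcript GC content and length was taken out. The median of the members was 0.22 and that of all genes tested 0.08, and 90% of all genes lay between -0.70 and 0.78. Across genes the difference went with GC content (Spearman's rho 0.36 over 7934 genes), a description in which genes share their libraries.

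Fully grown deletion against fully grown control oocytes asks the same at the end of growth. Again none of the 10 genes was called, where 2.17% of 7413 genes were. Crbn had the largest difference, -0.63, and 4.06% of all genes tested lay below it. Ddb1 was at 0.44, with 88.1% of genes below it. Vprbp (-0.38), Dtl (-0.22), Rbx1 (-0.17), Cul4b (-0.14) and Ddb2 (-0.11) were below control, and Cul4a (0.13), Dda1 (0.07) and Det1 (0.03) above it. With the GC and length trend taken out, Cul4b was at 0.02, Dda1 at -0.08 and Det1 at -0.07, on the other side of 0, and Ddb2, Rbx1 and Dtl lay between -0.06 and -0.01, while Crbn was at -0.51 and Ddb1 at 0.33. Det1 was also at -0.01 when libraries were rescaled by the median of ratios. The median of the members was -0.12, and that of all genes 0.04.

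The 2 deletion comparisons share no library. Of the 10 genes, 5 differed in the same direction at both stages, where 67.0% of the 7188 genes tested at both did. Ddb1, Cul4a and Dda1 were above control and Cul4b and Rbx1 below it at both stages, except that Cul4b, Rbx1 and Dda1 each changed sign at 1 stage with the GC and length trend taken out. Crbn, Vprbp, Ddb2 and Dtl were above control in growing and below it in fully grown oocytes, and Det1 the reverse, although Det1 was below control at both stages after rescaling or with that trend taken out. For Crbn the fully grown difference minus the growing one was -0.82, with 2.57% of genes below it, and for Vprbp -0.65, with 4.91% of genes below it. Differences of this size between stages have no replicate check here.

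**Figure D3:**
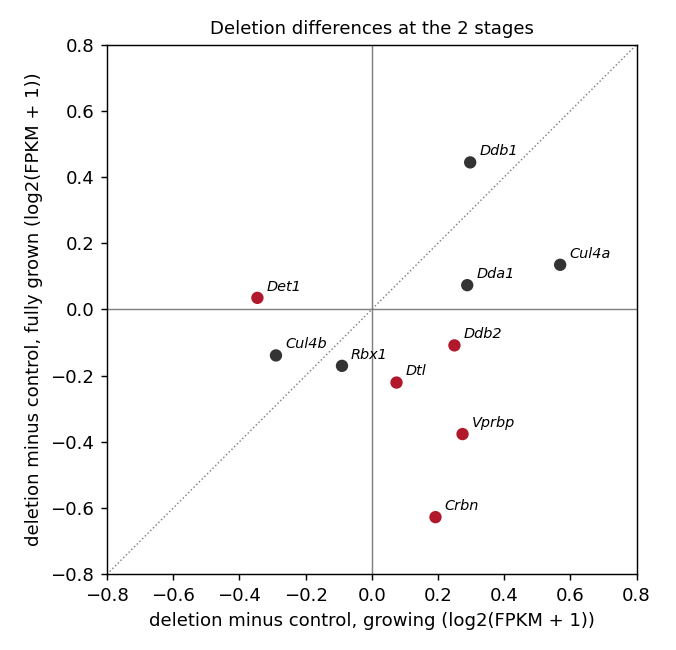
Difference between deletion and control in log2(FPKM + 1) in growing (x axis) and fully grown oocytes (y axis), 1 point per gene; the dotted line marks equal differences. Red points (Crbn, Vprbp, Ddb2, Dtl and Det1) have opposite signs at the 2 stages, with Crbn at 0.19 and -0.63; with the GC and length trend taken out Cul4b, Rbx1 and Dda1 also have opposite signs and Det1 does not.

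Fully grown deletion oocytes against growing ones show growth with Dcaf13 deleted. Cul4a and Crbn were called lower, 2 of the 10 genes, where 8.75% of 7957 genes were called lower, and none was called higher (2.7% of genes). With so few members this share was not set against the background by a test. Cul4a stood at 5.53 FPKM in fully grown against 14.2 in growing deletion oocytes, a difference of -1.22. Crbn stood at 12.4 against 26.3 FPKM, a difference of -1.02. Crbn was just past the limit of 1 and fell short of it when libraries were rescaled by the median of ratios, at -0.88, a rescaling that moved the median of all genes by 0.14. Relative to that median Crbn was at -0.95 with and without the rescaling. With that median over genes at 5 FPKM or more in all libraries Crbn was at -0.9996, and Cul4a at -1.20. The next largest difference was that of Vprbp, at -0.72, and the other 7 genes lay between -0.37 (Dda1) and 0.30 (Det1). With the GC and length trend taken out, Cul4a was at -1.13, Crbn at -1.02, Vprbp at -0.74, Dda1 at -0.09 and Det1 at 0.52. Ddb1 then went from -0.10 to 0.04 and Dtl from 0.005 to -0.04, each to the other side of 0. Ddb1 was also at 0.05 after rescaling by the median of ratios. This comparison shares the growing deletion library with the first, that of deletion and control in growing oocytes. In that library Cul4a, Crbn and Vprbp had their highest values, as did Ddb1, Dda1 and 40.6% of the genes that reached 5 FPKM in some library. The summed oocyte markers were also highest there, at 23685 FPKM. The granulosa marker sum given above was lowest there, with Cyp19a1 at 7.75 of its 18.0 FPKM. A link between the marker sums and these genes was not tested.

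Fully grown against growing control oocytes show the same interval with floxed Dcaf13 and no Cre. None of the 10 genes was called, where 4.18% of 7661 genes were. Cul4a stood at 4.95 FPKM in fully grown against 9.25 in growing control oocytes, a difference of -0.78, with 5.70% of genes below it. Ddb2 (0.38), Dtl (0.30), Rbx1 (0.23) and Cul4b (0.07) were higher in value in fully grown oocytes, and Ddb1 (-0.25), Crbn (-0.20), Dda1 (-0.16), Det1 (-0.08) and Vprbp (-0.07) lower in value. Vprbp and Det1 were above 0 after rescaling by the median of ratios (0.06 and 0.05), and Dda1 and Det1 with the GC and length trend taken out (0.07 and 0.11). Growth in the deletion and growth in controls share no library. Set side by side, Cul4a differed by -1.22 in the deletion and -0.78 in controls, Crbn by -1.02 and -0.20, and Vprbp by -0.72 and -0.07. For each gene the gap between these values is the stage difference given above (-0.82 for Crbn, -0.65 for Vprbp). It comes from the same 4 libraries and is not a second observation.

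**Figure D4:**
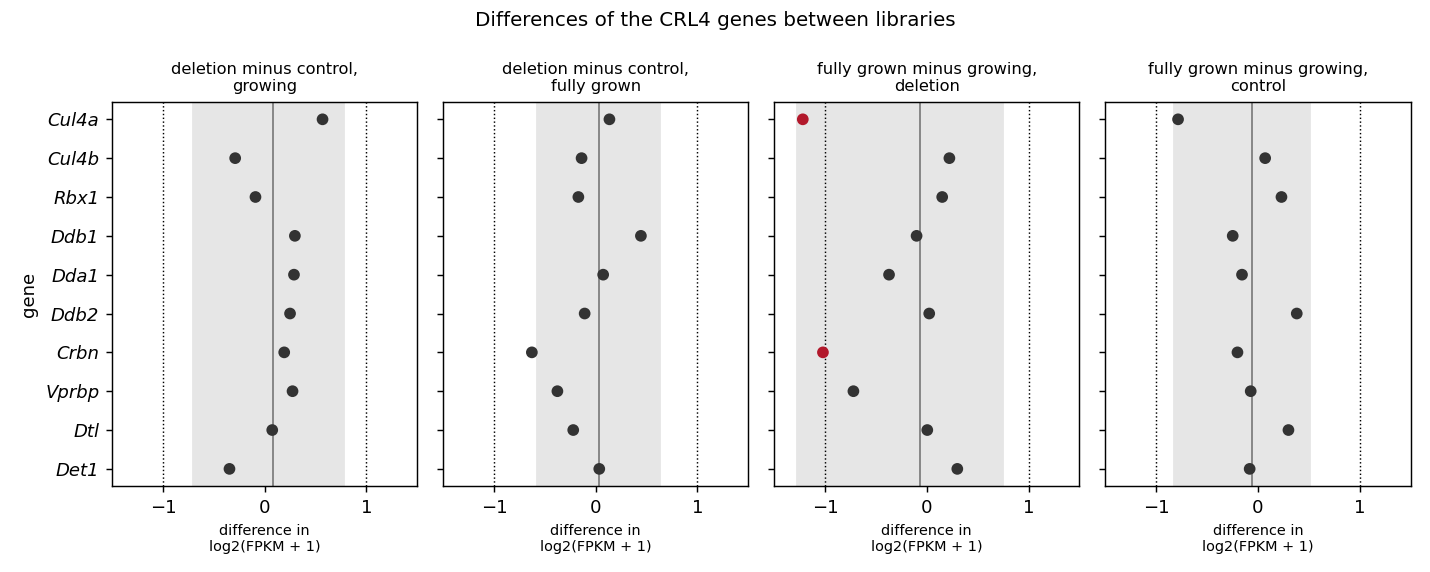
Difference in log2(FPKM + 1) of each CRL4 gene in the 4 comparisons; grey bands hold the middle 90% of all genes tested, the grey line is their median and dotted lines mark the limit of 1. Cul4a at -1.22 and Crbn at -1.02 in growth of the deletion oocytes (red) are the calls, and Crbn misses the limit at -0.88 after rescaling by the median of ratios.

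The genes whose pattern was most like that of Cul4a were sought among the 8235 genes that reached 5 FPKM in some library, by the root mean square difference of log2(FPKM + 1) after subtraction of each gene's own mean. The nearest were Pick1 (0.02), Lipt2 (0.02) and Adprh (0.03). Adprh stood at 148.4 FPKM in growing deletion, 96.7 in growing control, 65.6 in fully grown deletion and 57.7 in fully grown control oocytes, the order of libraries seen for Cul4a. The likeness rests on 4 libraries and says nothing of shared function.

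Other genes of the pathway were taken from lists fixed by symbol. Over all genes tested, 5.13% were called between deletion and control in growing and 2.17% in fully grown oocytes, and 4.18% in control growth. In growth of the deletion oocytes 8.75% were called lower and 2.7% higher. Of 7 genes, the other cullins and Rnf7, which encodes the RING partner of CUL5, 5 were at 5 FPKM or more. None of the 5 was called in either deletion comparison or in control growth. Cul1, the scaffold of the SCF ligases, was the most abundant cullin, at 250.6 FPKM in growing deletion, 265.4 in growing control, 252.1 in fully grown deletion and 291.9 in fully grown control oocytes. Rnf7 was the call in growth of the deletion oocytes, at 29.8 FPKM in fully grown against 63.5 in growing deletion oocytes (-1.07). Cul5 stood at 21.4 against 28.2 FPKM in growing and 15.2 against 23.3 FPKM in fully grown oocytes, deletion against control.

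Of 14 genes of NEDD8 attachment and its control, 12 were at 5 FPKM or more. None was called between deletion and control. Nedd8 itself was abundant, at 592.8 FPKM in growing deletion, 490.2 in growing control, 565.6 in fully grown deletion and 499.3 in fully grown control oocytes. Nae1, a subunit of the NEDD8 activating enzyme, lay between 147 and 187.7 FPKM. Ube2m, which encodes the NEDD8 conjugating enzyme that acts with RBX1, stood at 12.9 FPKM in fully grown against 27.0 in growing deletion oocytes (-1.01), the call of this list, and at 11.4 against 20.4 FPKM in controls (-0.79). Glmn encodes glomulin, which binds RBX1 and blocks it, and stood at 88.3 against 124.9 FPKM in growing (-0.50) and 106.6 against 166.4 FPKM in fully grown oocytes (-0.64), deletion against control, below the limit at both stages.

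All 9 genes of the COP9 signalosome were at 5 FPKM or more and none was called in any of the 4 comparisons. In growing oocytes 8 of the 9 were above control, where 58.5% of all genes tested were, with a median difference of 0.13 against 0.08. In fully grown oocytes 5 of the 9 were above control, where 55.0% of all genes tested were, with a median of 0.06 against 0.04. Cops4 was the most abundant, at 238.6 FPKM in growing deletion, 237.9 in growing control, 266.1 in fully grown deletion and 282.3 in fully grown control oocytes. Cops3 lay between 140.3 and 162.2 FPKM, and Cops5, which encodes the subunit that cuts NEDD8 off, between 128 and 157.7.

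The list of 4 associated factors held 1 call in growth of the deletion oocytes. That gene, Cacybp, was listed by symbol, and its link to CRL4 was not tested. Cacybp stood at 3.20 FPKM in fully grown against 7.55 in growing deletion oocytes (-1.03), close to the minimum level. Trpc4ap, a substrate receptor gene, stood at 67.7 against 56.3 FPKM in growing and 64.4 against 52.8 FPKM in fully grown oocytes, deletion against control. Rfwd2, the gene of COP1, which works with DET1, stood at 17.7 against 22.1 and 26.6 against 23.7 FPKM in the same order, and Ambra1 at 6.67 against 6.73 and 8.48 against 6.35 FPKM.

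Of 18 genes whose proteins are known substrates or targets of CRL4, some of them from human cells only, 13 reached 5 FPKM in each deletion comparison. None was called in any comparison, and their RNA does not show protein stability. Cdt1, the target of the receptor encoded by Dtl, stood at 95.0 against 76.2 FPKM in growing (0.31) and 103.1 against 58.5 FPKM in fully grown oocytes (0.81), deletion against control. Chek1, a checkpoint kinase gene, stood at 115.5 against 115.0 and 120.9 against 146.5 FPKM, and Pcna, the sliding clamp of replication, at 110.3 against 99.7 and 117.8 against 100.4 FPKM. Suv39h1, a histone methyltransferase gene whose product is a known target of DCAF13, was picked after its values were seen. It stood at 25.2 against 27.8 FPKM in growing (-0.14) and 19.4 against 29.6 FPKM in fully grown oocytes (-0.59).

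**Figure D5:**
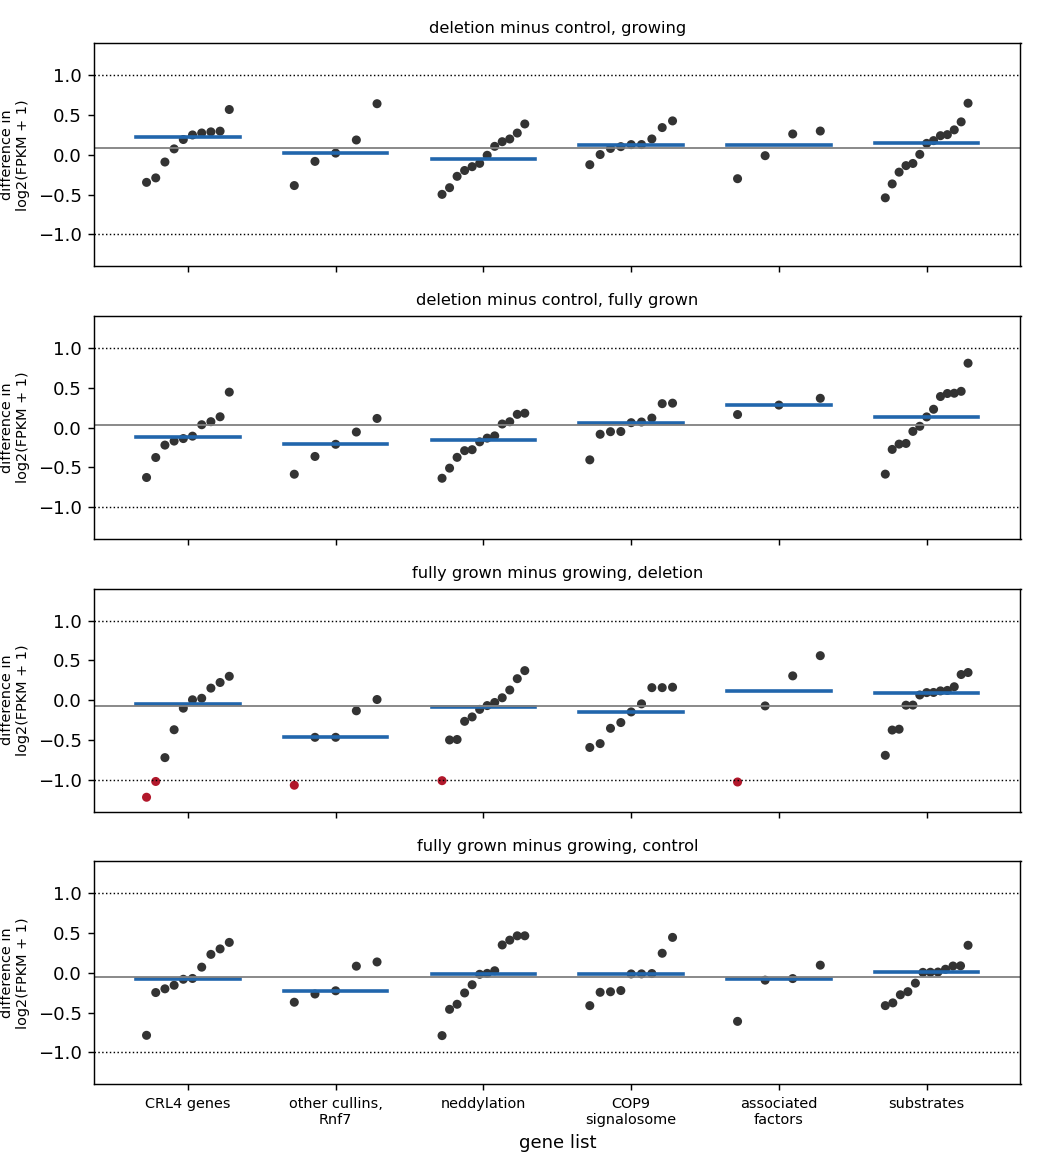
Difference in log2(FPKM + 1) for genes at 5 FPKM or more in each list, with 1 panel per comparison; blue bars are list medians, the grey line the median of all genes tested, dotted lines the limit of 1. Calls (red) appear only in growth of the deletion oocytes, at -1.22 (Cul4a), -1.02 (Crbn), -1.07 (Rnf7), -1.01 (Ube2m) and -1.03 (Cacybp), in a comparison where 8.75% of genes were called lower.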

How the data were processed

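The values are FPKM that the authors deposited, 1 per gene symbol and library; the 4 per-sample tables held the same values as the whole-series table. Cufflinks 2.2.1, TopHat2 2.0.11, Bowtie2 2.1.0, CASAVA 1.8 and the mm9 build are named, without roles, per the submitters' processing notes. Gene models and the handling of strand and multiple matches were not given in the sources used here. Libraries were made by Smart-seq2 and Tn5 transposase, per the labels' protocols. Symbols sorted in byte order were paired with the value rows in file order, which gave 19122 of 23235 rows another symbol. The members and lists were chosen with earlier results of these data known. With a pseudocount of 1, log2 values of FPKM were subtracted between libraries with Python 3.11.15 and pandas 2.3.3 over all genes. With 1 library per group no test or count model was used. Named genes were all members, Dcaf13, the 3 genes most like Cul4a, and per list the calls and up to 3 most abundant genes. Suv39h1 and the cell type markers at 0 were named outside this rule, after their values were seen. GC content and length came from the longest GENCODE M21 transcript, matched for 98.0% of rows, and their quadratic trend was removed as an alternative. Other alternatives were another pseudocount, minimum, threshold, rescaling by the median of ratios and the deposited pairing.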

Additional observations from a re-analysis of the deposited data

Results flagged for a closer look

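For 5 genes the difference between deletion and control had opposite signs in growing and fully grown oocytes, with 1 library per group and no test of the difference. Of 7188 genes tested at both stages, 33.0% had opposite signs. The values are the fully grown difference minus the growing one in log2(FPKM + 1). They were -0.82 for Crbn (12.4 against 19.8 FPKM in fully grown and 26.3 against 22.9 in growing oocytes, deletion against control) and -0.65 for Vprbp (8.88 against 11.8 and 15.3 against 12.5 FPKM). They were -0.36 for Ddb2 (31.4 against 33.9 and 30.8 against 25.8 FPKM), -0.30 for Dtl and 0.38 for Det1. Among these genes the middle 90% lay between -0.64 and 0.66. Of the 5 genes, Crbn and Vprbp lay outside that range, Vprbp only just. The value of Vprbp also rests on a row whose place the length check fixes less well. Det1 had the same sign at both stages with either rescaling by the median of ratios and with the GC and length trend taken out.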

How the results depend on the processing

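The count of members past the rule of size was 0 in both deletion comparisons and in control growth under each alternative run, except with a threshold of 1.5-fold, which gave 1 (Crbn) in fully grown deletion against control and 1 (Cul4a) in control growth. In growth of the deletion oocytes the count was 2, and 1 with either rescaling by the median of ratios, which dropped Crbn, the second of them chosen after the data were seen. With the deposited pairing it was 0, and the difference of Cul4a there was 0.22, the value of the row that re-pairing gives to Cul4b. Other pseudocounts, minimums and taking out the GC and length trend left Cul4a and Crbn as the calls, and a threshold of 1.5-fold added Vprbp, for a count of 3. No single difference changed sign with a pseudocount of 0.1, while 4 and 1 of 40 did with the planned and the added rescaling. With the GC and length trend taken out 8 did, the largest of these 8 at -0.16 (Dda1 in control growth). With the deposited pairing 9 did, all of them of Cul4a, Cul4b or Rbx1. Every difference of Vprbp was 0 under that pairing, where its row is listed at 0, so none of its differences was kept. No paired analysis was possible because each group held 1 library, and for the same reason no library could be left out. The number of fragments behind a value is unknown, which limits what can be said of Cul4a and Vprbp, the lowest members.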
